A study of Mus musculus with 4 samples.

Results

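The enzymes that write, copy and remove cytosine methylation in DNA were followed in testes of mice with a conditional knockout of Dis3. The set comprised the 8 genes Dnmt1, Dnmt3a, Dnmt3b, Dnmt3l, Uhrf1, Tet1, Tet2 and Tet3, chosen by name from the 54232 genes of the count table, and all 8 had enough reads to be tested. Stranded RNA sequencing, primed with random and poly(T) primers, had been run on whole testes of B6D2F1 mice at postnatal day 17, with 2 libraries from Dis3 conditional knockout mice (labelled Dis3 KO, here KO) and 2 from control mice (labelled Dis3 WT, here WT). What drives the deletion, which allele was used and how many animals stand behind a library is not stated in the labels. Dis3 itself, a ribonuclease of the RNA exosome, had 39.6 and 42.9 CPM (reads scaled to library size) in the KO libraries and 80.2 and 80.7 CPM in the WT libraries (log2 fold change of KO over WT -0.96 ± 0.0729 SE, adjusted p = 2.34e-09 by edgeR). The count covers every exon, and whole testis includes any cells in which Dis3 was not deleted.

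In mammals, cytosines that precede a guanine (CpG) carry most of the methylation. After each round of replication UHRF1 binds hemimethylated CpG sites and brings in DNMT1, which copies the mark to the new strand. DNMT3A and DNMT3B set new marks, in germ cells with the help of DNMT3L, a relative without catalytic activity. The TET dioxygenases oxidise methylcytosine, the first step of its removal. In the male germ line, marks are set before birth in arrested prospermatogonia, the stage at which Dnmt3l is best known to act, and are then kept through the divisions of spermatogonia.

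All 3 TET genes were higher in KO testes, and the pair of maintenance genes, Uhrf1 and Dnmt1, was lower. Dnmt3a, Dnmt3b and Dnmt3l did not pass the test. The gene table held 17663416 and 19255782 reads for KO replicates 1 and 2, and 31031920 and 40329170 reads for WT replicates 1 and 2. CPM refers to library sizes scaled by the trimmed mean of M-values (TMM). Calls were made with edgeR's quasi-likelihood test at an adjusted p of 0.05, with Benjamini-Hochberg adjustment over all 25076 genes tested. Of these genes 11.6% were called higher in KO and 20.3% lower (31.9% in either direction), against 3 and 2 of the 8 genes, and the median log2 fold change was 0.05 over all tested genes and 0.21 over the 8. Among the 16673 genes with at least 5 times the background reads, which include all of the 8 but Dnmt3l, 8.4% were called higher and 30.5% lower, with a median of -0.12 against 0.13 over the 7. The 8403 genes nearer to background had a median of 0.75. The KO and WT libraries did not overlap in CPM for any of the 8 genes, but this also held for 35.6% of all tested genes in the direction of higher KO values and for 32.7% in the other. The labels do not state whether the libraries of a genotype come from separate animals, so the p-values rest on library-to-library spread, which may be technical. In whole tissue, fewer cells of a type and less RNA per cell cannot be told apart.

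**Figure D1:**
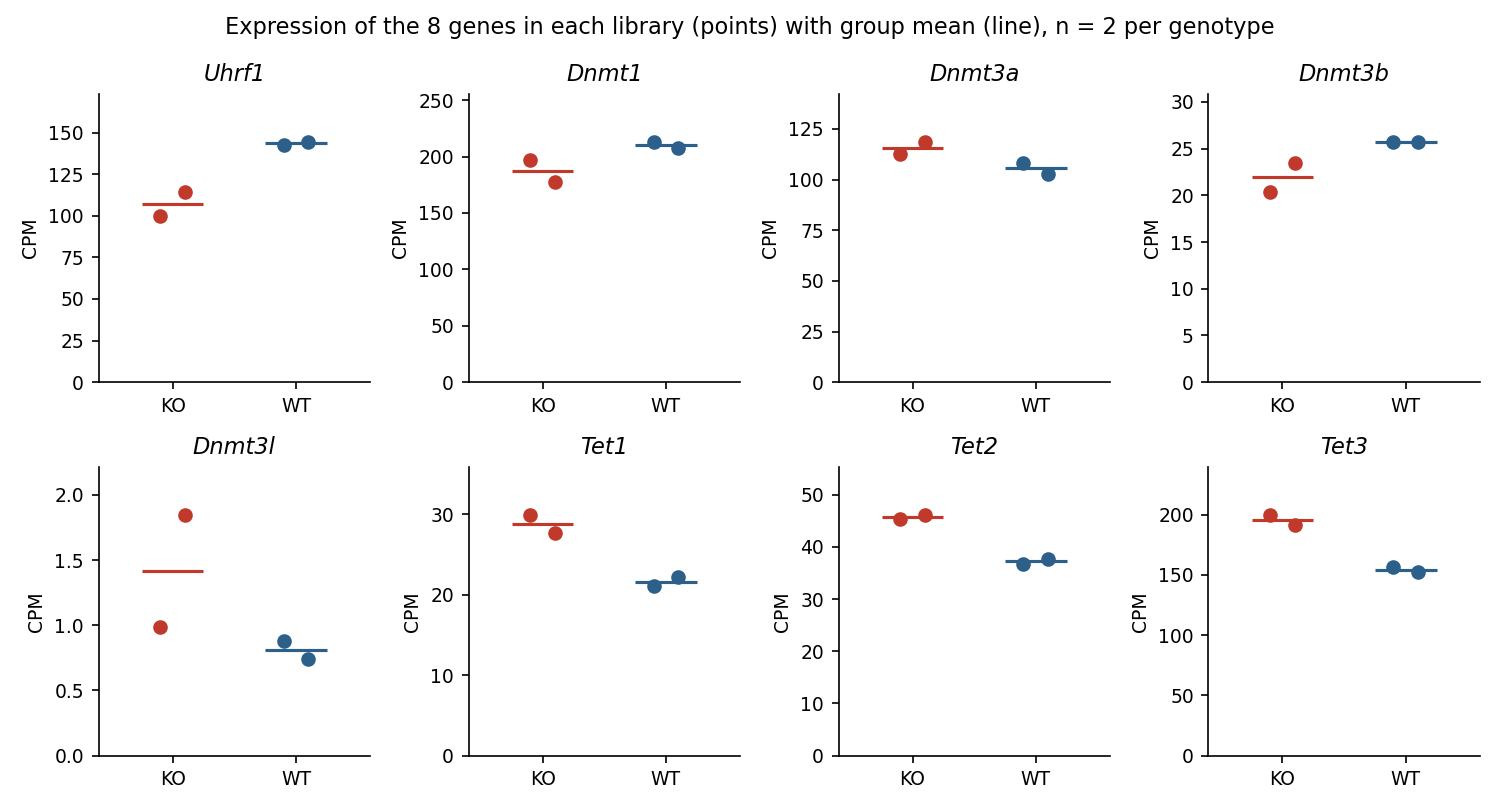
Expression of each gene in CPM (y axis, starting at 0) by genotype (x axis), with 1 point per library and a line at the mean of the 2 libraries. Uhrf1, Dnmt1 and Dnmt3b sit lower in both KO libraries than in both WT libraries, and the other 5 genes sit higher.

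Uhrf1 (ENSMUSG00000001228.14, GRCm38 chromosome 17, 56303321 to 56323486, plus strand) encodes the reader of hemimethylated CpG sites. It had 1820 and 2353 reads in KO replicates 1 and 2, and 4211 and 5482 reads in WT replicates 1 and 2. These counts correspond to 99.9 and 114 CPM in the KO libraries and to 142 and 145 CPM in the WT libraries. Both KO libraries were thus below both WT libraries, by more than separated the KO libraries from each other. The log2 fold change was -0.42 ± 0.0668 (SE, adjusted p = 3.42e-05 by edgeR), the smallest adjusted p of the 8 genes. Uhrf1 stayed lower and called under all 12 alternative settings tried (other scalings, filters, background subtraction, a replicate block, DESeq2 and each library left out), at log2 fold changes of -0.58 to -0.29.

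Dnmt1 (ENSMUSG00000004099.16, chromosome 9, 20907209 to 20959888, minus strand) encodes the maintenance methyltransferase. It had 197 and 178 CPM in KO replicates 1 and 2, and 213 and 207 CPM in WT replicates 1 and 2. The gap between the nearest KO and WT libraries was narrower than the gap between the KO libraries. The log2 fold change was -0.17 ± 0.0624 (adjusted p = 0.0432 by edgeR). The direction held in all 12 alternatives but the call was lost in 6, among them DESeq2 (adjusted p = 0.0501) and the fits without KO replicate 2 (0.104), without WT replicate 1 (0.0867) and without WT replicate 2 (0.0973). Dnmt1 has oocyte and spermatocyte transcripts with first exons of their own, which counts per gene do not separate.

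The windows below run from 250 bases before to 50 bases after a RefSeq transcript start (GRCm38.p6). They are shown because Uhrf1 and Dnmt1 were both lower and Tet3, the most highly read TET gene, was higher, and the Uhrf1 and Dnmt1 windows were picked from several for their matches to E2F words. Capitals mark the E2F words TTTCGCGC, TTTCCCGC and TTTGGCGC, searched on both strands.

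Uhrf1, chr17:56304063-56304362, plus strand: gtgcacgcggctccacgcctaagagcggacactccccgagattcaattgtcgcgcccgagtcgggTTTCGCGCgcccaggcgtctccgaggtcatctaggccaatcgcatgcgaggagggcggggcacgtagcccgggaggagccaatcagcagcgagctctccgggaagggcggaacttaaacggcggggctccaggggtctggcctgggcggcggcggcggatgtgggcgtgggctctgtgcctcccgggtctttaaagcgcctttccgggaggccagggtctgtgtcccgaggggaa

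Dnmt1, chr9:20952574-20952873, minus strand: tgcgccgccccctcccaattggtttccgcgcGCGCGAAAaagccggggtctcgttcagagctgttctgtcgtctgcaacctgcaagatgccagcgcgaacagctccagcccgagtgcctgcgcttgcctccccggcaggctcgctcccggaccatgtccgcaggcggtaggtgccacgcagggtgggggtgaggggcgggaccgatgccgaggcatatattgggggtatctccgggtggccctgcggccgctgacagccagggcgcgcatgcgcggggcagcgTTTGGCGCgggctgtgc

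Tet3, chr6:83441629-83441928, minus strand: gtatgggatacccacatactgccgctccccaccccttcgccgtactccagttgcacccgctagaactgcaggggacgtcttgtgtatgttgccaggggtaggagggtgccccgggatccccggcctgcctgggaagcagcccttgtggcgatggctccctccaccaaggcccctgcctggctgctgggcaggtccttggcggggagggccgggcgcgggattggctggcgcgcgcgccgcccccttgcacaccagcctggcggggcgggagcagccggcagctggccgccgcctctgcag

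The Uhrf1 window held TTTCGCGC once, from position -185 relative to the transcript start. The Dnmt1 window held it on the other strand, read there as GCGCGAAA, from position -219, and TTTGGCGC from position 33. None of these matches overlapped a GC box (GGGCGG). TTTCGCGC occurred in 0.323% of the 32851 RefSeq mouse promoter windows, and any of the 3 words in 1.84%. Among the 2812 windows with at least 33 CpG dinucleotides, as many as in the shown Uhrf1 and Dnmt1 windows, these shares were 0.853% and 3.81%. RefSeq gave 15 windows for the 8 genes, and the other 13 held none of these letters, including a second Uhrf1 window and 2 further Dnmt1 windows. The shown Uhrf1 and Dnmt1 windows were picked for their matches, so the shares over other windows do not test whether these matches are unusual. The matches describe the sequence and are not measured binding sites. CpG dinucleotides numbered 33 in the shown Uhrf1 window and 12 in the other one, and 33 in the shown Dnmt1 window, 12 and 2 in the others. There were 46, 47 and 18 in the Dnmt3a windows, 30 in that of Dnmt3b, 22 in that of Tet3, 17 in that of Tet1 and 57 in that of Tet2, against a median of 7 over all windows. The 3 Dnmt3l windows held 6, 4 and 3.

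Dnmt3a (ENSMUSG00000020661.15, chromosome 12, 3806007 to 3914443, plus strand), a methyltransferase that sets new marks, had 112 and 119 CPM in KO replicates 1 and 2, and 108 and 103 CPM in WT replicates 1 and 2. Its log2 fold change of 0.13 ± 0.0632 did not pass (adjusted p = 0.113 by edgeR). With libraries scaled to Sertoli cell genes it was -0.0040, and it passed with a stricter filter and with background subtracted and TMM computed anew (0.20 and 0.25), so neither its direction nor its call was settled by these libraries. The antisense gene Dnmt3aos, which overlaps an exon of Dnmt3a on the other strand, had 2 and 1 reads in the KO libraries and 6 and 11 in the WT libraries.

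Dnmt3b (ENSMUSG00000027478.15, chromosome 2, 153649450 to 153687730, plus strand), the second enzyme of this kind, had 20.4 and 23.5 CPM in the KO libraries and 25.8 and 25.7 CPM in the WT libraries. The WT libraries were nearly equal and the KO libraries lay below them, with a log2 fold change of -0.23 ± 0.0991 (adjusted p = 0.0812 by edgeR). Its direction held in all 12 alternatives (-0.39 to -0.13), but its size and call varied. It passed without a filter (adjusted p = 0.0391 by edgeR) and with scaling to Sertoli cell genes (0.00619). With background subtracted and TMM computed anew it was -0.13 and did not pass (adjusted p = 0.395 by edgeR). The value was -0.39 without KO replicate 2 and -0.15 without KO replicate 1, so its size depended on which KO library was kept. Dnmt3c, a rodent copy of Dnmt3b that acts on young transposons in the male germ line, lies just downstream on the same strand and had 45 and 42 reads in the KO libraries and 60 and 69 in the WT libraries. Its log2 fold change was 0.23 ± 0.282 (adjusted p = 0.563). No option that keeps reads mapping to several places is recorded, so both genes may be undercounted where they are near-identical.

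Dnmt3l (ENSMUSG00000000730.13, chromosome 10, 78041947 to 78063622, plus strand) had 18 and 38 reads in KO replicates 1 and 2, and 26 and 28 reads in WT replicates 1 and 2. These were 2.01 and 3.78 times the background expected for its exons in the KO libraries, and 3.25 and 3.74 times in the WT libraries. Background was estimated from upstream regions of autosomal genes that were themselves not tested. The log2 fold change was 0.82 ± 0.411 (adjusted p = 0.128 by edgeR) and was 0.24 without KO replicate 2, so a change of Dnmt3l was not detectable at this depth. The gene Aire overlaps the start of Dnmt3l on the opposite strand. It had 28 and 18 reads in the KO libraries and 16 and 15 in the WT libraries. It was called higher in KO (log2 fold change 1.36, adjusted p = 0.0356 by edgeR), a call that rests on few reads. For comparison, 11.6% of all tested genes were called higher, and 17.9% of those under 5 times background.

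Tet3 (ENSMUSG00000034832.15, chromosome 6, 83362373 to 83459084, minus strand) had 3639 and 3937 reads in KO replicates 1 and 2, and 4626 and 5781 reads in WT replicates 1 and 2. After scaling it had 200 and 191 CPM in the KO libraries and 157 and 152 CPM in the WT libraries. The log2 fold change was 0.34 ± 0.0591 (adjusted p = 0.000106 by edgeR). The KO libraries were both above the WT libraries, and the gap between genotypes exceeded the gap within either. Tet3, the TET enzyme known for oxidising the paternal genome after fertilisation, stayed higher and called in all 12 alternatives (0.20 to 0.47).

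Tet1 (ENSMUSG00000047146.17, chromosome 10, 62804570 to 62908996, minus strand), which is known for demethylation in primordial germ cells, had 29.9 and 27.7 CPM in the KO libraries and 21.1 and 22.2 CPM in the WT libraries. Its log2 fold change of 0.41 ± 0.0947 was the highest among the called genes of the set (adjusted p = 0.00184 by edgeR). The rise held in all 12 alternatives (0.27 to 0.49). Its reads were 11.8 and 10.96 times background in the KO libraries and 15.1 and 21.7 times in the WT libraries, and with background subtracted on the same library scale the value was 0.36.

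Tet2 (ENSMUSG00000040943.12, chromosome 3, 133463679 to 133545139, minus strand), best known from blood stem cells, had 45.3 and 46.1 CPM in the KO libraries and 36.7 and 37.7 CPM in the WT libraries. The libraries of each genotype lay close together and the genotypes did not overlap. The log2 fold change was 0.30 ± 0.0782 (adjusted p = 0.00564 by edgeR). It stayed above 0 in all 12 alternatives, but the call was lost without KO replicate 2 (adjusted p = 0.0888), without WT replicate 1 (0.0804), without a filter on low counts (0.0923) and with scaling to Sertoli cell genes (0.169).

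**Figure D2:**
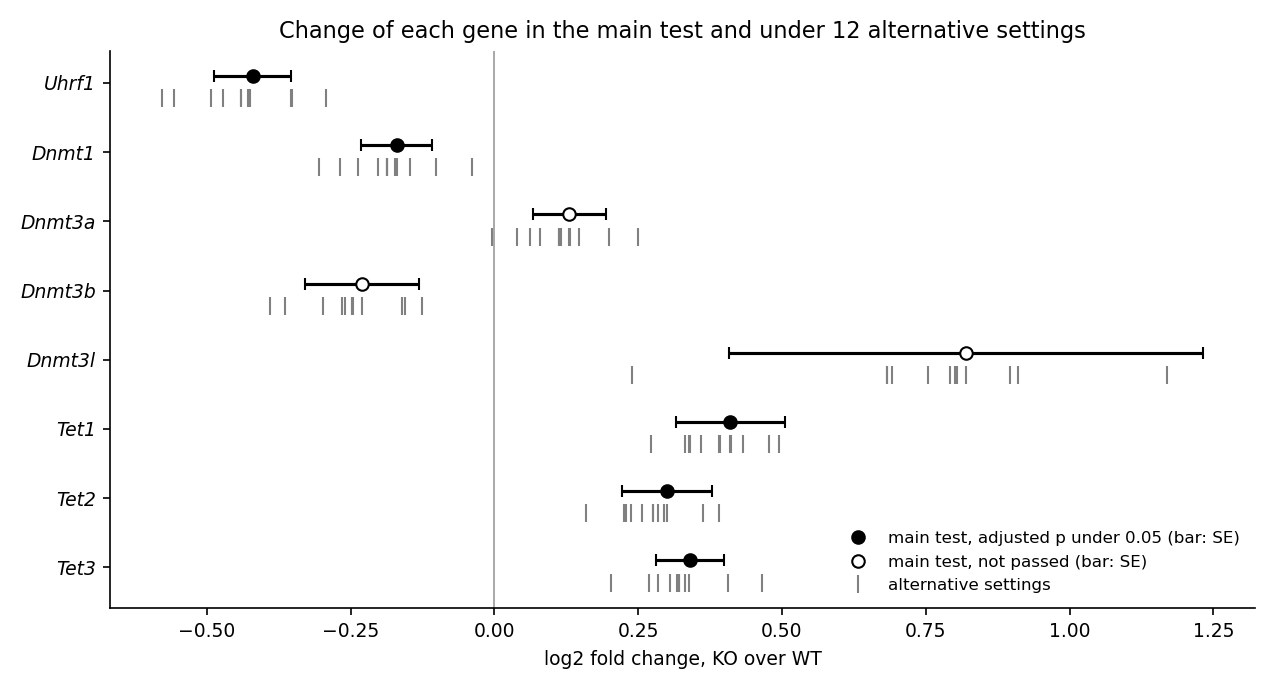
Log2 fold change of KO over WT (x axis) for each gene (y axis), with the SE of the main test as a bar, filled points for genes that passed, and grey ticks for the 12 alternative settings. The Uhrf1 and Dnmt1 ticks all lie below 0, the ticks of Tet1, Tet2 and Tet3 all lie above 0, and 1 tick of Dnmt3a lies just below 0.

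Levels of different genes were compared as CPM per kilobase of exon, so their order rests on the exon lengths used. In CPM without this division, Tet3 had a mean of 195.4 and Dnmt1 of 187.3 in KO libraries. In WT libraries these means were 154.5 and 210.4. The values that follow are per kilobase. In KO libraries Dnmt1 was at 25.4 ± 1.88 and Uhrf1 at 25.1 ± 2.39 (SD, n = 2), and their libraries overlapped. In WT libraries Uhrf1 was at 33.7 ± 0.348 and Dnmt1 at 28.5 ± 0.57, without overlap. The remaining order was the same in both genotypes, with no overlap between neighbours. Tet3 was at 11.7 ± 0.359 in KO and 9.25 ± 0.172 in WT, Dnmt3a at 6.95 ± 0.261 in KO and 6.34 ± 0.231 in WT, and Dnmt3b at 4.29 ± 0.429 in KO and 5.03 ± 0.0122 in WT. Tet2 was at 2.71 ± 0.0344 in KO and 2.21 ± 0.042 in WT, Tet1 at 1.86 ± 0.102 in KO and 1.40 ± 0.0476 in WT, and Dnmt3l at 0.474 ± 0.203 in KO and 0.271 ± 0.0334 in WT.

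Shares within a library do not depend on how libraries are scaled. They do depend on the exon length that divides the reads, which was 16642 bases for Dnmt3a, 7377 for Dnmt1 and 16695 for Tet3. Tet3 made up 72.1% and 71.7% of the TET reads per kilobase in KO replicates 1 and 2, and 72.6% and 71.3% in WT replicates 1 and 2. The KO and WT libraries overlapped in the shares of Tet3 and Tet2. Tet1 made up 11.67% and 11.21% in the KO libraries and 10.57% and 11.20% in the WT libraries. These did not overlap but nearly met (exact permutation p = 0.3333). The difference was 0.522 percentage points with raw reads and 0.292 with background subtracted. Without each library in turn it was 0.244 to 0.866, where its sign could not turn because the genotypes did not overlap. Within the DNMT family, Dnmt3a made up 17.9% and 19.6% in the KO libraries and 16.0% and 15.6% in the WT libraries, and Dnmt1 made up 70.7% and 66.1% in the KO libraries and 70.9% and 71.0% in the WT libraries. TET reads per kilobase came to 43.9 and 43.9 per 100 DNMT reads per kilobase in the KO libraries, and to 31.7 and 32.4 in the WT libraries. The KO libraries were above the WT libraries by 11.85 on average, and by 20.42 with raw reads in place of reads per kilobase. As the genotypes did not overlap, leaving out a library could not turn the sign of this difference. With 4 libraries an exact two-sided permutation test cannot go below p = 0.3333, which is the value this ratio reached. The ratio was formed after the values of the genes had been seen.

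**Figure D3:**
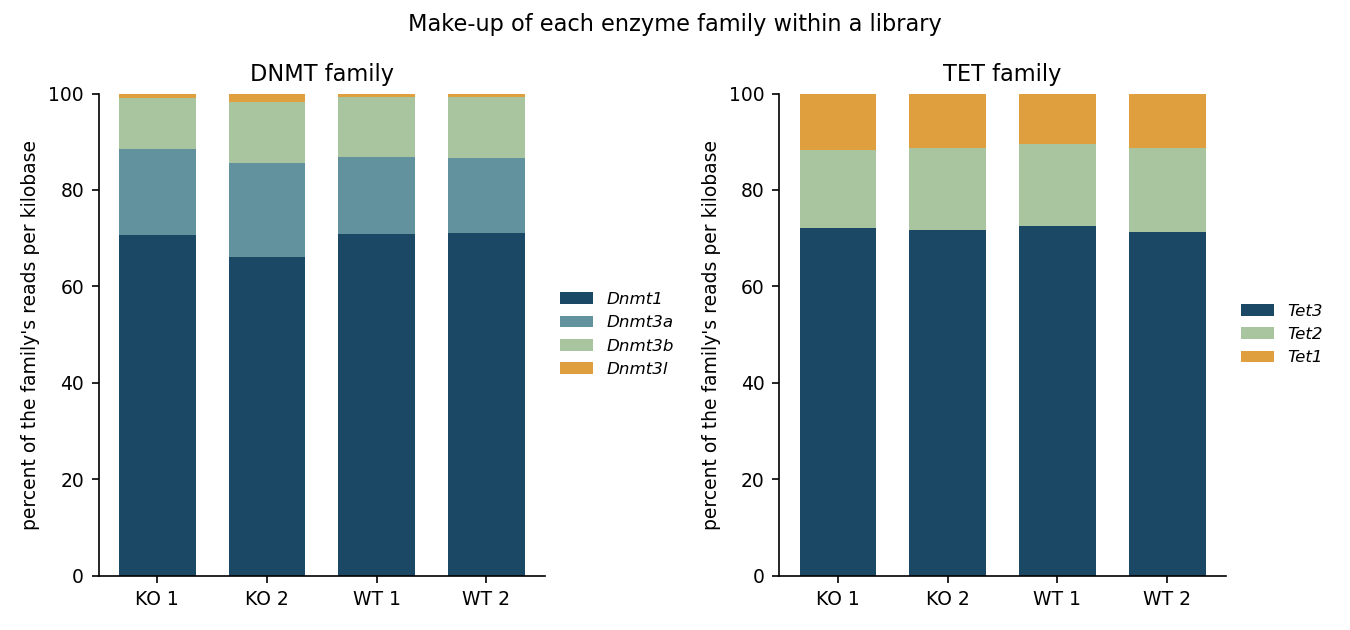
Percent of the reads per kilobase of the DNMT family (left) and the TET family (right) that each gene takes (y axis) in each of the 4 libraries (x axis). Dnmt1 takes 66.1% to 71.0% of its family and Tet3 takes 71.3% to 72.6% of its own in every library.

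The tables of reads in the 3000 bases upstream of genes held a region for Uhrf1, Dnmt3a, Tet1 and Tet3. On the strand of the gene, 0 of the 3 tested regions passed edgeR's test (2 had an unadjusted p below 0.05), against 0.0598% of all 18393 tested regions (0.0544% higher and 0.00544% lower in KO). On the opposite strand 0 of 4 passed (2 had an unadjusted p below 0.05), against 11.6% of 18596 (11.5% higher and 0.113% lower in KO). Upstream of Tet3 on its own strand there were 14 and 23 reads in the KO libraries and 8 and 8 in the WT libraries (log2 fold change 1.97 ± 0.574, adjusted p = 0.0772). Scaled on the upstream table itself this value was 1.10 (adjusted p = 0.629). Upstream of Tet1 there were 12 and 12 reads in the KO libraries and 6 and 6 in the WT libraries (adjusted p = 0.0954). Background on that strand was 8.99 and 10.1 reads per region in the KO libraries and 8.11 and 7.51 in the WT libraries. The Tet1 region thus lay close to it, and so did the Tet3 region in the WT libraries. The Tet3 region, at 83459085 to 83462084, does not hold the transcript start of the Tet3 window shown above. The region with the most reads was that of Dnmt3a on the opposite strand, at 80 and 73 reads in the KO libraries and 54 and 104 in the WT libraries (log2 fold change 0.78 ± 0.261, adjusted p = 0.0578). Over all tested regions the median log2 fold change was 0.93 on the strand of the gene and 1.02 on the opposite strand, on the library scale of the gene table.

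Genes that work with these enzymes were read from the same fit, in which 20.3% of all tested genes were called lower and 11.6% higher. Among genes at least 5 times background the shares were 30.5% and 8.4%. Of 20 genes of S phase and replication, the phase in which UHRF1 and DNMT1 act, 15 fell and 0 rose (median log2 fold change -0.28). Mcm7, a subunit of the replicative helicase, had 149 and 157 CPM in the KO libraries and 204 and 206 CPM in the WT libraries (-0.42 ± 0.0595). Top2a, a topoisomerase of dividing cells, fell by 0.42 ± 0.0621 on the log2 scale, and so did Gins1 (-0.50 ± 0.0895), Rrm1 (-0.31 ± 0.0614) and Cdc45 (-0.39 ± 0.077). The number that fell depended on scaling, with 6 after background was subtracted and TMM computed anew, 19 with scaling to Sertoli cell genes and 9 to 16 without each library in turn (9 without WT replicate 2), while none rose in any of the 12 alternatives.

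Of 18 partners that target or maintain methylation 7 fell and 0 rose. For comparison, 20.3% of all tested genes were called lower, and 30.5% of those at least 5 times background. Pcna, the sliding clamp that recruits DNMT1 to replication forks, had 108 and 119 CPM in the KO libraries and 152 and 169 CPM in the WT libraries (log2 fold change -0.50 ± 0.0672). Kdm2b, a reader of unmethylated CpG (-0.55 ± 0.0809), Trim28, a co-repressor at imprinted loci (-0.44 ± 0.0653), Cxxc1 (-0.41 ± 0.0639) and the histone methyltransferase gene Setdb1 (-0.30 ± 0.0595) also fell. With background subtracted and TMM computed anew, 6 of the 18 were lower and 3 higher.

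Of the 15 tested genes listed under base excision and demethylation, 5 fell and 0 rose. Polb, the repair polymerase, had 63.8 and 55.4 CPM in KO and 98.65 and 96.6 CPM in WT (log2 fold change -0.71 ± 0.0722). The others that fell were Xrcc1 (-0.46 ± 0.0664), Lig3 (-0.41 ± 0.06), Ung (-0.28 ± 0.0887) and Parp1 (-0.18 ± 0.0605). Tdg, the glycosylase that removes TET products, had a log2 fold change of 0.11 ± 0.144 and did not pass (adjusted p = 0.594). Of 9 readers of methylated CpG, Mbd3 (-0.31 ± 0.0644), Mbd6 (-0.27 ± 0.068) and Mbd1 (-0.20 ± 0.0716) fell and 0 rose. With TMM computed anew after background subtraction, 1 reader was lower and 4 were higher. Of 14 genes of the methyl donor cycle 3 fell and 0 rose, namely Shmt1 (-0.47 ± 0.0794), Mtr (-0.22 ± 0.0597) and Mat2a (-0.22 ± 0.0602), which encodes the main S-adenosylmethionine synthetase outside the liver. The methyl donor count was 1 without WT replicate 2, 6 with scaling to Sertoli cell genes, and 1 lower and 1 higher with TMM computed anew. The methyl donor share is close to the 20.3% of all tested genes called lower, and those of the repair genes and readers are close to the 30.5% among genes well above background.

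Of 8 TET partners and genes of 2-oxoglutarate supply, the co-substrate of TET enzymes, 3 rose and 2 fell, against 11.6% and 20.3% of all tested genes. Without KO replicate 2 the counts were 1 and 1, without WT replicate 1 they were 1 and 2, without KO replicate 1 or WT replicate 2 they were 2 and 1, and with DESeq2 they were 1 and 1. Wt1, a transcription factor that binds TET proteins and also marks Sertoli cells, had 281.4 and 268.5 CPM in the KO libraries and 227 and 239 CPM in the WT libraries (0.24 ± 0.0598). Idh2 (0.28 ± 0.0972) and D2hgdh (0.51 ± 0.187) rose. Idh3a (-0.27 ± 0.0687), for a subunit of a mitochondrial enzyme that makes 2-oxoglutarate, was among those that fell. With scaling to Sertoli cell genes 0 of the 8 were higher and 2 lower, and with background subtracted and TMM computed anew 6 were higher and 0 lower. Among relatives of the 8 genes, the UHRF1 paralog Uhrf2 (-0.11 ± 0.0728), the tRNA methyltransferase gene Trdmt1 (-0.04 ± 0.118) and Cxxc4, a TET2 binding partner (0.39 ± 0.183), did not pass.

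Of 10 genes that guide methylation through piRNAs 7 fell and 0 rose, the same numbers in all 12 alternatives. Mael (-0.64 ± 0.06), Tex15 (-0.49 ± 0.0599), Mov10l1 (-0.47 ± 0.0603), Tdrd9 (-0.49 ± 0.0635) and the PIWI gene Piwil2 (-0.45 ± 0.0582) were among them. Spocd1 and Piwil4, which act with DNMT3L in prospermatogonia, were low, at 2.74 and 2.82 CPM in the KO libraries and 3.05 and 2.58 CPM in the WT libraries for Spocd1, and at 3.62 and 3.45 CPM in the KO libraries and 3.59 and 4.09 CPM in the WT libraries for Piwil4. Neither passed. Of 17 germline genes whose promoters are methylated in somatic cells 16 fell and 0 rose (median -0.41). Beside this count and that of the piRNA genes stand 20.3% of all tested genes called lower. Among genes at least 5 times background it was 30.5%. Tdrd1 had 304 and 280 CPM in the KO libraries and 451 and 470 CPM in the WT libraries (-0.66 ± 0.0618). Ddx4 (-0.57 ± 0.059), Dpep3 (-0.56 ± 0.0592) and Tex101 (-0.55 ± 0.0588) fell as well. DNA methylation was not measured, and Mael and Asz1 are on both lists.

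**Figure D4:**
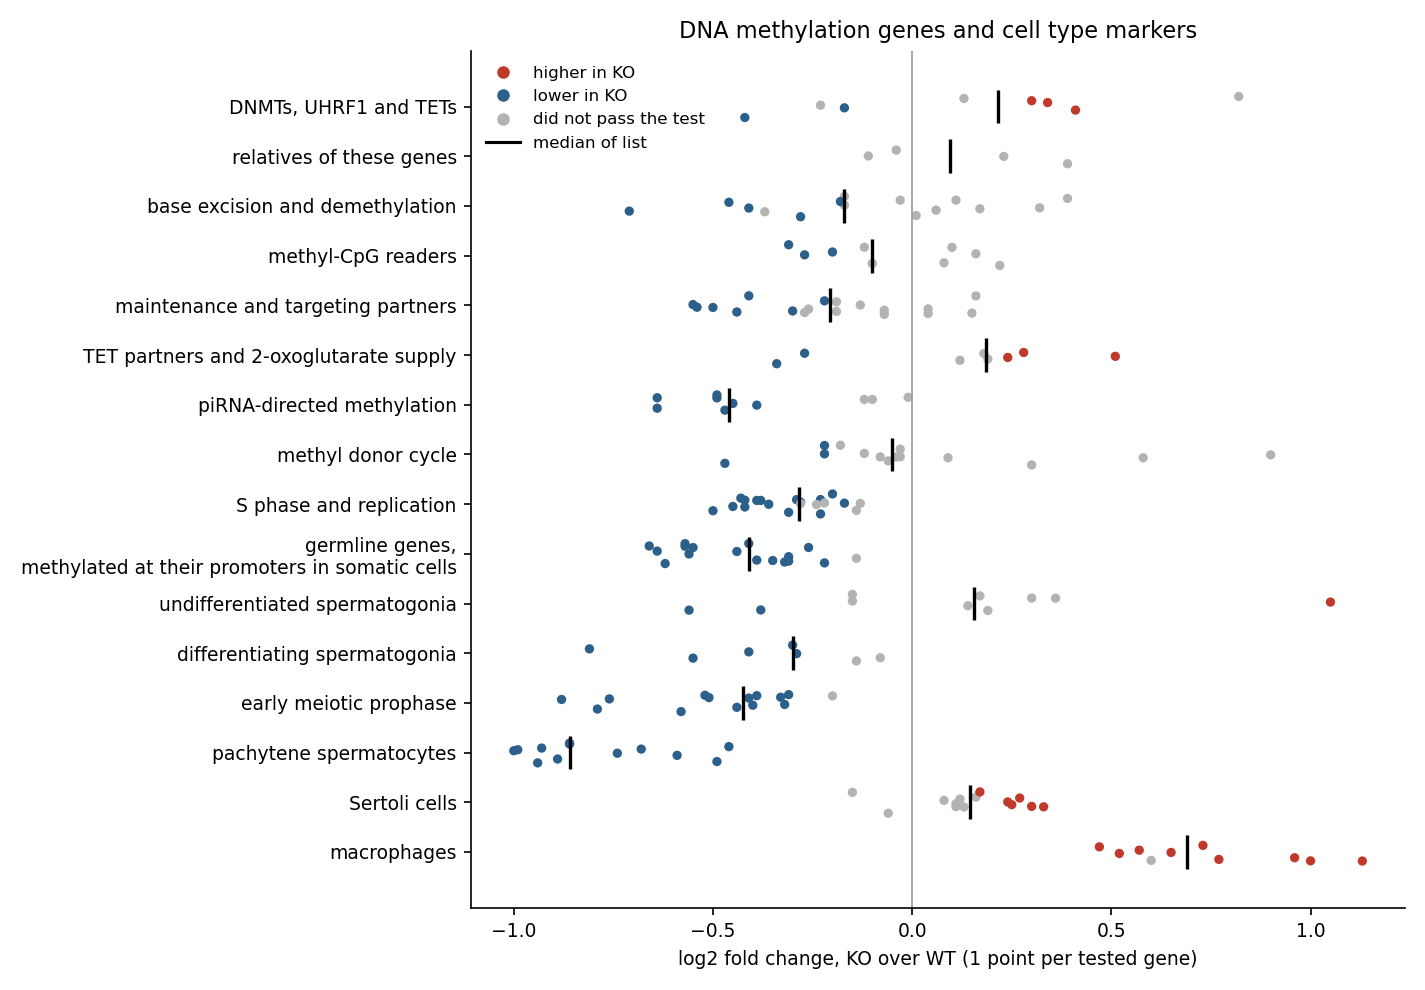
Log2 fold change of KO over WT (x axis) for each tested gene (points) of each list (y axis), in red where higher in KO, in blue where lower in KO and in grey where the test was not passed, with the median of the list as a black line. The 3 TET genes lie to the right of 0, while the S phase list has a median of -0.28 and the piRNA list one of -0.46.

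Markers of the cell types of the testis were read from the same fit, in which 11.6% of all tested genes were called higher and 20.3% lower. Of 12 pachytene markers 12 fell (summed level 3420 to 3780 CPM in KO, 5767 to 5993 CPM in WT), of 14 markers of early meiotic prophase 13 fell (3298 to 3328 CPM in KO, 4549 to 4687 CPM in WT), and of 7 markers of differentiating spermatogonia 5 fell (618 to 619 CPM in KO, 854 to 907 CPM in WT). Among 10 undifferentiated spermatogonial markers, 1 was higher and 2 were lower (309 to 314 CPM in KO, 359 to 362.5 CPM in WT). Of 14 Sertoli cell markers 6 rose and 0 fell (7622 to 7830 CPM in KO, 6923 to 7133 CPM in WT), and of 10 macrophage markers 9 rose and 0 fell (292.5 to 300 CPM in KO, 180 to 182 CPM in WT). No marker was at 0 in all 4 libraries. With background subtracted and TMM computed anew 11 Sertoli cell markers were higher, and with scaling to Sertoli cell genes, which sets their level, 1 was higher and 2 were lower. Without WT replicate 1 only 1 Sertoli cell marker was higher, as without a filter on low counts, and without each of the other libraries 5 were. The macrophage count stayed at 8 to 9 in all 12 alternatives. Leydig cell markers (2 of 7 rose, 2 fell), peritubular myoid markers (1 of 5 rose, 1 fell), endothelial markers (2 of 6 rose, 0 fell), red blood cell genes (3 of 3 tested fell) and adipocyte genes (2 of 2 tested rose) completed the lists. Background reads per kilobase and strand were 2.995 and 3.365 in the KO libraries and 2.681 and 2.506 in the WT libraries, with fewer gene reads in KO. The part of cell composition and of background in the changes of the 8 genes was not tested.

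The tested genes whose pattern over the 4 libraries was closest to that of Uhrf1, by Euclidean distance between centred log2 CPM among 15130 genes, were Ccar2, Slc25a39, Polrmt, Pam16 and Capza1, at distances of 0.0164 to 0.0302. Ccar2 had 60.7 and 69.1 CPM in the KO libraries and 85.7 and 88.3 CPM in the WT libraries. With 4 libraries this likeness reflects the difference between genotypes and the spread within each.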

How the data were processed

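The values are raw read counts per gene and per upstream region, deposited by the authors for 2 KO and 2 WT libraries. Per the file headers they were made with featureCounts 1.6.4 on the GENCODE M18 annotation, by exon on the strand of the gene, and for 3000-base regions upstream of genes on either strand. Cutadapt, HISAT2 and the build GRCm38.p5 are listed in the submitters' processing notes. Groups come from the sample titles. No column of per-sample values was left unmapped.

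Symbols were matched by gene ID (99.72% of 54232 genes). The test was edgeR's quasi-likelihood test (version 4.0.16, R 4.3.3) with filterByExpr, TMM, a robust fit and genotype as the only term. Upstream tables used the gene table's library sizes and factors. Background was the trimmed mean (fraction 0.25 at each end) over 13469 upstream regions of untested autosomal genes. The fit was tested on simulated data. Replicates differed beyond sampling noise (chi-square per degree of freedom 5.72 in KO and 4.98 in WT). Alternatives included DESeq2 1.42.0, other scalings and filters, a replicate block, background subtraction and each library left out. The genes and lists were chosen with earlier results of these data known. Named genes are the 8, their relatives and overlapping genes, up to 5 called genes per list with the smallest adjusted p, and the 5 nearest to Uhrf1; Tdg, Spocd1, Piwil4 and Asz1 were added after their values were seen. The values of 1 gene that the rule names are not reported here. The labels name no date or batch.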

Additional observations from a re-analysis of the deposited data

How the results depend on the processing

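Uhrf1, Tet1 and Tet3 kept direction and call under all 12 alternatives, and Dis3 did too. The count of genes lower in the set was 1 in place of 2 with DESeq2 and with a filter of 1 CPM in 2 libraries. It was also 1 with background subtracted and TMM anew, each time by loss of Dnmt1. It was 3 without a filter and with scaling to Sertoli cell genes, by gain of Dnmt3b. In both of these settings the count higher was 2 in place of 3, by loss of Tet2. With the stricter filter and with TMM anew the count higher was 4, by gain of Dnmt3a. Without each library in turn the log2 fold change of Dnmt1 was -0.27 to -0.15. Over all tested genes 1008 were higher with DESeq2, 1937 without a filter, 1872 with scaling to Sertoli cell genes, 1189 with background subtracted on the kept library scale, and 1324 to 2429 without each library, in place of 2906. With background subtracted and TMM anew 3390 were lower in place of 5092. Over the lists of working partners together, 3 genes were higher and 56 lower; the higher count was 0 without a filter and with Sertoli scaling, 1 with DESeq2, 12 with the stricter filter, 14 with background subtracted and TMM anew (36 lower), and 1 to 2 without each library. Sertoli scaling shifted all log2 fold changes by -0.14 and subtraction with TMM anew by a median of 0.10. Values that changed sign were Dnmt3a (-0.0040, Sertoli scaling), Trdmt1 (0.0224 with the stricter filter, 0.0624 with background subtracted and TMM anew, and -0.2026 to 0.0803 without each library), the Tet3 share (0.437 points with background subtracted, -0.663 to 0.576 without each library) and the Dnmt3b share (-1.99 to 0.0842 without each library). The cause of these changes was not tested.

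On the sense strand, regions upstream of the 8 genes gave 1 call (Tet3) without a filter and with the replicate block, and 0 to 1 without each library. On the opposite strand they gave 1 (Dnmt3a) without a filter, 2 (Dnmt3a and Uhrf1) with the block, and 0 to 1 without each library. Scaled on the upstream tables themselves, the values on the opposite strand were -0.64 for Tet3, -0.83 for Tet1 and -0.18 for Dnmt3a, and those on the sense strand were 1.10 for Tet3, 0.91 for Tet1 and -0.98 for Dnmt3a. The sign also turned for Dnmt3a on the sense strand (0.0461 with the block, -0.58 to 0.11 without each library) and for Tet1 on the opposite strand (-0.0466 with the block, -1.11 to 0.74 without each library). Replicate numbers are not stated to pair animals. Deviations of same-numbered libraries correlated at 0.0957 over 13286 genes, and the replicate block gave 3362 higher and 5469 lower genes; it changed no call among the 8 genes. Dnmt3l and the Tet1 and Tet3 upstream regions rest on few reads.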
